A study of Mus musculus with 27 samples.

Results

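The genes described here mark whether a cell is in an epithelial or a mesenchymal state. They were set by name as 10 of the 22524 genes counted in every library: the cadherins Cdh1, Cdh17 and Cdh2, the adhesion molecule Epcam, the splicing regulators Esrp1 and Esrp2, the intermediate filament gene Vim, and the transcription factors Zeb1, Zeb2 and Snai2. All 10 were found in the files by their Ensembl identifiers. The comparison asks how their levels differ between intestinal organoids, the cell line m-ICc12 and mouse embryonic fibroblasts (MEF), where m-ICc12 lies between the other two, and whether they differ between the paired libraries of a culture.

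RNA was sequenced from 27 libraries. Organoids were grown from the jejunum of wild-type adult male C57BL/6J mice, 3 from each of the specific-pathogen-free (SPF) facilities SR and SE and 3 from the germ-free (GF) facility, and were used at passage 5 to 8. Each of these 9 cultures, and each of 3 cultures of the immortalised mouse small intestinal epithelial line m-ICc12, gave a library labelled untreated and another labelled as given TNF at 5 ng/mL for 8 h, and MEF, of C57BL/6 origin, gave 3 untreated libraries. Organoid replicates are different mice, and the paper describes the mice of a facility as cohoused littermates. Facility and litter thus cannot be told apart. For m-ICc12 and MEF no source says that replicates were separate isolates, so p-values with them measure the spread between these samples, which may be technical.

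Epithelial cells hold together through E-cadherin at adherens junctions. In an epithelial-mesenchymal transition, transcription factors of the SNAI and ZEB families bind E-box sequences and repress E-cadherin and other epithelial genes, N-cadherin and vimentin come up, and the ESRP proteins, which set epithelial splice forms, are lost. Intestinal epithelium also carries LI-cadherin, the product of Cdh17, and EpCAM, while the fibroblasts below it hold the mesenchymal set.

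The libraries held 6071103 to 43843615 counts. Levels are given as CPM (counts scaled to a common library size by TMM), and 3 counts, taken as the floor of detection, are worth 0.0651 to 0.519 CPM depending on the library. Directions by treatment follow the sample labels, which the genes that TNF is known to induce go against. Nfkbia, Nfkb2, Tnfaip3 and Relb, all targets of NF-kB, had lower levels with the TNF label in organoids and in m-ICc12, and the names of the deposited files give the opposite treatment in all 12 pairs. Nfkbia, which encodes an inhibitor of NF-kB, averaged 197 ± 27.6 CPM over the 9 organoid libraries with the untreated label and 31.1 ± 3.63 CPM over the 9 with the TNF label. Cell types were compared in the libraries labelled untreated. If the labels are crossed, these organoid and m-ICc12 libraries were TNF-treated and the MEF libraries untreated. Treatment and cell type then cannot be told apart in the comparisons with MEF. Repeating the comparisons with the labels exchanged added a call for Epcam between m-ICc12 and MEF. It changed no other member's call between cell types. The libraries were also checked against lineage markers. The sum of 24 further epithelial genes was 8007 to 9799 CPM in organoids, 3339.9 to 3799 CPM in m-ICc12 and 40.5 to 50.4 CPM in MEF, and that of 24 further mesenchymal genes was 14.1 to 68.2 CPM, 1371 to 1564 CPM and 13211 to 16756 CPM. The intestinal transcription factor Cdx2 averaged 181 ± 23.2 CPM in organoids but 0.251 ± 0.143 CPM in m-ICc12. In m-ICc12 8 kidney tubule markers summed to 1038 to 1272 CPM, against 32.2 to 50.3 CPM in organoids and 0.915 to 1.32 CPM in MEF. Of 8 immune markers 6 had no count in m-ICc12, where their sum of 64.7 to 106 CPM was nearly all Csf1r at 89.5 ± 22.4 CPM, and the sum came to 1.57 to 20.1 CPM in organoids, led by Itgam at 5.1 ± 2.88 CPM with Ptprc at 0.00441 ± 0.0132 CPM, and 0.0381 to 0.625 CPM in MEF. Endothelial and neural markers stayed under 8 CPM in every library labelled untreated. The part of these marker levels in the results was not tested. In bulk RNA, fewer cells that express a gene and less RNA per cell cannot be told apart.

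Organoids carried the epithelial members and almost none of the mesenchymal ones, and MEF the reverse. By edgeR's quasi-likelihood F-test, at a Benjamini-Hochberg adjusted p under 0.05, all 10 members passed between organoids and MEF. Cdh1, Cdh17, Epcam, Esrp1 and Esrp2 were higher in organoids, and Cdh2, Vim, Zeb1, Zeb2 and Snai2 were lower, where 34.6% of the 13144 genes tested were higher and 32.6% lower. Between organoids and m-ICc12, 9 members were tested. The same 5 epithelial members were higher in organoids and Cdh2, Vim, Zeb1 and Zeb2 were lower, where 31.6% of 12962 genes were higher and 29.3% lower. Snai2 had too few counts in both groups for this test. Between m-ICc12 and MEF all 10 were tested. Cdh17 and Esrp2 were higher in m-ICc12 and Zeb1, Zeb2 and Snai2 lower, where 28.1% of 12830 genes were higher and 31.2% lower. Most genes thus differed between these cell types, and a call alone sets no member apart. Some members called met the filter of 10 counts in 50% of libraries only through the group where they were high. Between organoids and MEF these were Esrp1, Zeb1, Zeb2 and Snai2. Between organoids and m-ICc12 they were Zeb1 and Zeb2, and between m-ICc12 and MEF Snai2. Their calls add nothing to the counts given below. The sizes follow by role.

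**Figure D1:**
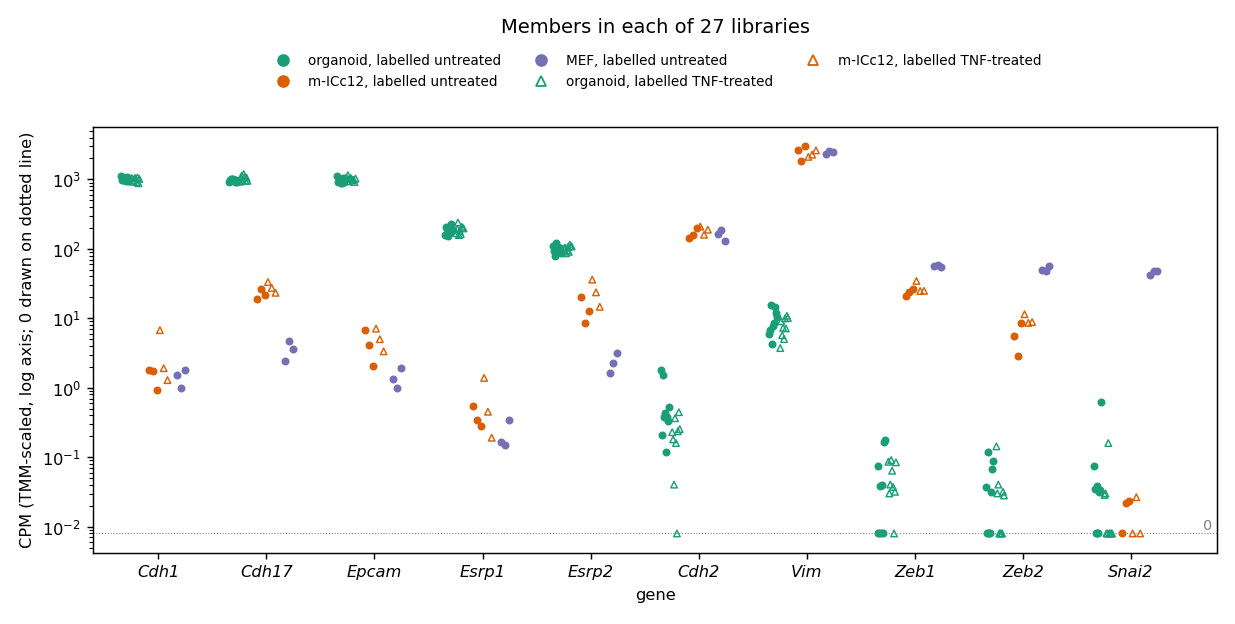
CPM (TMM-scaled, log axis) of the 10 members in each of the 27 libraries, by cell type (colour) and treatment label (filled circles for untreated, open triangles for TNF-treated), with values of 0 drawn on the dotted line. Cdh1, Cdh17, Epcam, Esrp1 and Esrp2 are highest in organoids, Cdh2 and Vim are high in both m-ICc12 and MEF, Zeb1 and Zeb2 step down from MEF to m-ICc12 to organoids, and Snai2 is high in MEF.

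Cdh1 encodes E-cadherin, the core of the epithelial adherens junction (ENSMUSG00000000303, chr8:106603351-106670246, GRCm38). In the 9 organoid libraries labelled untreated it ranged from 949 to 1132 CPM, with a median of 991 CPM. It stood at 1.79, 1.74 and 0.929 CPM in m-ICc12 cultures M1, M2 and M3, and at 1.51, 1.0 and 1.79 CPM in MEF replicates R1, R2 and R3. The organoids overlapped with neither group, and m-ICc12 and MEF covered nearly the same range. The log2 difference was 9.42 between organoids and m-ICc12 (SE 0.23, adjusted p 3.99e-14 by edgeR) and 9.49 between organoids and MEF (SE 0.20, adjusted p 2.55e-15 by edgeR). For m-ICc12 against MEF it was 0.0025 (adjusted p 0.998 by edgeR), with a 95% interval from -1.45 to 1.45. The m-ICc12 values came from 62, 80 and 39 counts, which is above the floor but low beside other organoid genes. Of 2286 genes at 100 CPM or more in organoids, 95% kept at least 0.365% of their organoid level in m-ICc12 and 0.184% in MEF, by group means. In single m-ICc12 libraries this bound was 0.342% (M1), 0.62% (M2) and 0.177% (M3). In MEF libraries it was 0.147% (R1), 0.161% (R2) and 0.214% (R3). Cdh1 was at 0.176%, 0.171% and 0.0914% of its organoid level in the m-ICc12 libraries and at 0.149%, 0.0983% and 0.176% in MEF. It lay under the bound of its own library in all of these but R1.

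Cdh17 encodes LI-cadherin, a cadherin of intestinal epithelium (ENSMUSG00000028217, chr4:11758147-11817895). It ranged from 902 to 1014 CPM in the organoid libraries labelled untreated. It stood at 18.9, 26.6 and 21.4 CPM in m-ICc12 and at 2.39, 4.65 and 3.58 CPM in MEF, and none of the 3 groups overlapped. On the log2 scale organoids were 5.44 above m-ICc12 (SE 0.14, adjusted p 5.29e-14 by edgeR), and m-ICc12 was 2.62 above MEF (SE 0.32, adjusted p 1.63e-05 by edgeR). In m-ICc12 this was 1.95%, 2.75% and 2.22% of the organoid level.

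Cdh2 encodes N-cadherin, the cadherin of mesenchymal and neural cells (ENSMUSG00000024304, chr18:16588877-16809246). It stood at 145, 156 and 201 CPM in m-ICc12 and at 166, 187 and 129.7 CPM in MEF, whose ranges overlapped. In organoids labelled untreated it ranged from 0.119 to 1.81 CPM, with a median of 0.383 CPM. Every organoid library lay far below the others. The log2 difference of organoids was -8.09 against m-ICc12 (SE 0.45, adjusted p 1.63e-10 by edgeR) and -8.04 against MEF (SE 0.46, adjusted p 1.78e-10 by edgeR). For m-ICc12 against MEF it was 0.018 (adjusted p 0.933 by edgeR), with a 95% interval from -0.31 to 0.35. The highest organoid values, 1.81 and 1.52 CPM, came from the SR cultures Z908 and Z910, with 48 and 26 counts.

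The 3 cell types differed in which cadherins made up their total. For this, levels were divided by summed exon length (CPM per kb) and taken as a share of the sum over 15 cadherins, the 3 members and 12 others. In organoids Cdh1 made up 50.5% ± 2.35 and Cdh17 49% ± 2.2 (SD, n = 9) of a sum of 440 ± 13.1 CPM per kb. In m-ICc12 the sum was 225 ± 22.4 CPM per kb (n = 3). There Cdh16, the cadherin of kidney tubules, made up 79.7% ± 3.68, Cdh2 9.39% ± 2.64, Cdh6 5.61% ± 1.17 and Cdh17 2.24% ± 0.465. In MEF the sum was 67.0 ± 8.63 CPM per kb (n = 3), of which Cdh3, or P-cadherin, made up 49.3% ± 1.57, Cdh2 29.7% ± 2.35 and Cdh24 15.2% ± 0.242. The like Cdh2 levels of m-ICc12 and MEF were thus a larger share of the cadherins in MEF.

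**Figure D2:**
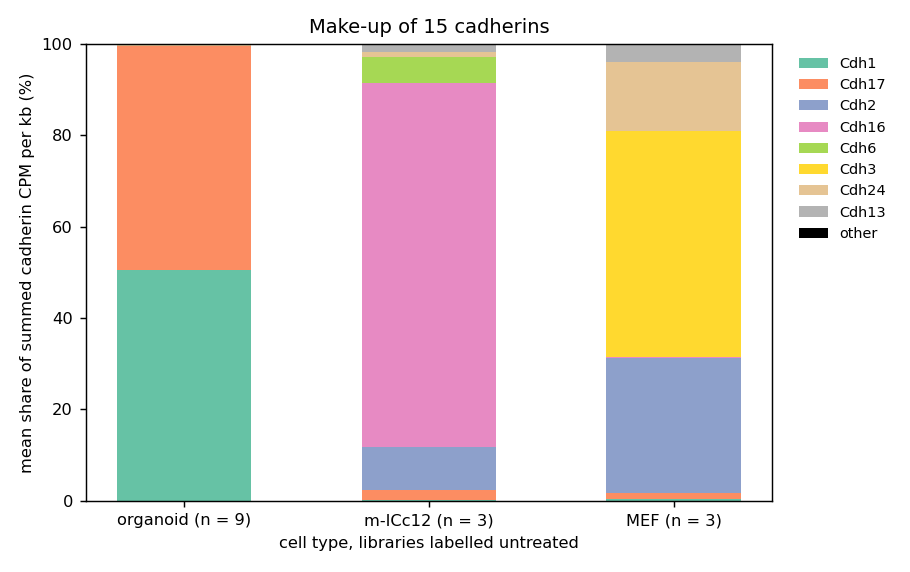
Mean share (%) of each cadherin in the summed CPM per kb of 15 cadherins, for organoids (n = 9), m-ICc12 (n = 3) and MEF (n = 3), libraries labelled untreated, stacked to 100. Organoids hold Cdh1 (50.5%) and Cdh17 (49.0%), m-ICc12 holds mostly Cdh16 (79.7%), and MEF holds Cdh3 (49.3%), Cdh2 (29.7%) and Cdh24 (15.2%).

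Of the 12 further cadherins, 3 of 4 tested were lower in organoids than in m-ICc12, and 4 of 6 lower than in MEF, with none higher. Between m-ICc12 and MEF 3 were higher and 3 lower of 7 tested. The medians of these log2 differences were -7.92, -4.0 and -1.69. Cdh16 averaged 682 ± 98.5 CPM in m-ICc12 and 0.495 ± 0.0599 CPM in MEF (log2 difference 10.39, SE 0.22, adjusted p 2.94e-12 by edgeR). Cdh6, a cadherin known from kidney, averaged 113 ± 18 CPM and 0.0793 ± 0.0992 CPM. Cdh3 ran the other way, at 0.272 ± 0.385 CPM and 145 ± 16.3 CPM (log2 difference -8.96, SE 0.51, adjusted p 9.03e-09 by edgeR). Cdh13 was at 41.2 ± 2.86 CPM and 28 ± 4.14 CPM, and Cdh24 at 9.67 ± 5.06 CPM and 35.5 ± 4.58 CPM. The catenins, which tie cadherins to the cytoskeleton, differed far less. Ctnnb1, or beta-catenin, was at 987 ± 78.6 CPM in organoids, 796 ± 23.2 CPM in m-ICc12 and 670.0 ± 37.7 CPM in MEF. Ctnna1 was at 417 ± 43.7, 514 ± 42.8 and 493 ± 49.4 CPM and Ctnnd1 at 411 ± 28.8, 247 ± 37.3 and 319 ± 24.6 CPM in the same order.

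Epcam encodes the epithelial cell adhesion molecule, a membrane protein of simple epithelia (ENSMUSG00000045394, chr17:87635979-87651129). It ranged from 887 to 1119.5 CPM in the organoid libraries labelled untreated. It stood at 6.74, 4.19 and 2.05 CPM in m-ICc12 and at 1.32, 1.0 and 1.94 CPM in MEF, so that m-ICc12 culture M3 came close to the highest MEF replicate. On the log2 scale organoids were 7.84 above m-ICc12 (SE 0.33, adjusted p 4.45e-12 by edgeR) and 9.46 above MEF (SE 0.22, adjusted p 5.25e-15 by edgeR). The log2 difference of m-ICc12 to MEF, 1.55 (SE 0.65, adjusted p 0.0548 by edgeR), did not pass, with a 95% interval from 0.28 to 2.82. DESeq2 gave 1.59 with an adjusted p of 0.0258. The call was also gained in edgeR without m-ICc12 culture M3 (1.88, adjusted p 0.0303) and without MEF replicate R3 (1.86, adjusted p 0.0446). Over all alternatives its adjusted p ran from 1.33e-05 to 0.247, the highest without culture M1. Epcam was at 0.688%, 0.427% and 0.209% of its organoid level in m-ICc12 and at 0.135%, 0.102% and 0.198% in MEF. Of genes high in organoids, 95% kept at least 0.365% in m-ICc12 and 0.184% in MEF, by group means. By the bounds of single libraries given for Cdh1, Epcam lay above in M1 and M3 and under in M2 and all MEF libraries. These bounds also differ between the groups, and their part in the Epcam difference was not tested.

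Promoter sequence shows whether the letters known to be bound by ZEB and SNAI proteins lie next to a member that was low where Zeb1 and Zeb2 were high. It was taken from RefSeq (GRCm38.p6), where Epcam, Vim and Zeb2 were matched. The letters searched were CACCTG, which reads CAGGTG on the other strand, and 17.2% of 32851 windows of 250 bases before a start site held them. The window of Epcam, chr17:87635729-87635978 on the forward strand, held 2, beginning 187 and 19 bases before the start. The first window of Zeb2, chr2:45117443-45117692 on the reverse strand, held none and is shown beside it as a mesenchymal member. Neither window overlaps an annotated exon. Both are printed 5′ to 3′ on the strand of the gene, with the matches in capitals. A match of letters is a description, not a site, and no match says only that these letters are not in this window.
Epcam: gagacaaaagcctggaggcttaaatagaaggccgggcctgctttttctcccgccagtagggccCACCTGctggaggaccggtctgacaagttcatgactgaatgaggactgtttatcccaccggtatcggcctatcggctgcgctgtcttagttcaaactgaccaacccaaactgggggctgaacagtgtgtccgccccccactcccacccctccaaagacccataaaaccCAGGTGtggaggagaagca
Zeb2: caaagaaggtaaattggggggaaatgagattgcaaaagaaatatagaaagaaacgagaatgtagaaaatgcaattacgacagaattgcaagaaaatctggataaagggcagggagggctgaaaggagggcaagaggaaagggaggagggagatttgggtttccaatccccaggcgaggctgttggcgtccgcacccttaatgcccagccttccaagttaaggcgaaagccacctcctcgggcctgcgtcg

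Esrp1 and Esrp2 encode paralogous RNA-binding proteins that direct epithelial splice forms. Esrp1 (ENSMUSG00000040728, chr4:11331933-11386783) ranged from 155 to 228 CPM in organoids labelled untreated. It was at 0.55, 0.347 and 0.286 CPM in m-ICc12, from 19, 16 and 12 counts, and at 0.166, 0.15 and 0.343 CPM in MEF, from 7, 6 and 9 counts. The low groups overlapped, and organoids lay 8.9 log2 units above m-ICc12 (SE 0.24, adjusted p 5.47e-14 by edgeR) and 9.8 above MEF (SE 0.25, adjusted p 9.18e-15 by edgeR). For m-ICc12 against MEF the 95% interval ran from -1.41 to 3.01. In m-ICc12 Esrp1 was at 0.295%, 0.186% and 0.153% of its organoid level, where 95% of genes high in organoids kept at least 0.365% by group means. It also lay under the bounds of the single m-ICc12 libraries given for Cdh1. Esrp2 (ENSMUSG00000084128, chr8:106130319-106136974) ranged from 80.1 to 121 CPM in organoids. It was at 20.4, 8.51 and 12.7 CPM in m-ICc12 and at 1.66, 2.3 and 3.2 CPM in MEF, and none of the 3 groups overlapped. Organoids were 2.86 log2 units above m-ICc12 (SE 0.23, adjusted p 1.64e-08 by edgeR), and m-ICc12 was 2.5 above MEF (SE 0.43, adjusted p 2.88e-04 by edgeR).

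Per length, Esrp2 made up 43.9% ± 5.41 of the sum of both ESRP genes in organoids (n = 9), with a range of 37.5% to 53.1%. It made up 98% ± 0.63 in m-ICc12 and 94.1% ± 1.38 in MEF (n = 3 each). Organoids held both paralogs, and what m-ICc12 held was nearly all Esrp2. Exons of Esrp2 share 219 bases with exons of Nfatc3 on the opposite strand, and the use of strand in counting is not stated. Nfatc3 was at 126 CPM in organoids, 81.5 CPM in m-ICc12 and 219.9 CPM in MEF. Its part in the Esrp2 values was not tested.

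Vim encodes vimentin, the intermediate filament of mesenchymal cells (ENSMUSG00000026728, chr2:13573927-13582826). It was the most abundant member in m-ICc12, at 2660.4, 1832 and 2981 CPM, and in MEF, at 2347, 2575 and 2458 CPM. In the organoid libraries labelled untreated it ranged from 4.26 to 15.7 CPM, with a median of 8.65 CPM. The organoids overlapped with neither group, and the MEF values lay within the range of m-ICc12. The log2 difference of organoids was -8.03 against m-ICc12 (SE 0.30, adjusted p 1.19e-12 by edgeR) and -8.01 against MEF (SE 0.29, adjusted p 5.06e-13 by edgeR). For m-ICc12 against MEF it was -0.022 (adjusted p 0.919 by edgeR), with a 95% interval from -0.35 to 0.31.

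Zeb1 and Zeb2 encode zinc finger repressors of Cdh1. Zeb1 (ENSMUSG00000024238, chr18:5591860-5775467) was at 20.7, 24 and 26.6 CPM in m-ICc12 and at 56.7, 59 and 54.5 CPM in MEF. The 9 organoid libraries labelled untreated held 13 counts in all, and 7 of these libraries were at or under the floor. MEF, m-ICc12 and organoids thus stood in 3 separate ranges. Over pooled counts the ratio to organoids was 439 (256 to 826) in m-ICc12 and 1045 (611 to 1963) in MEF, with 95% exact binomial intervals in parentheses that, like the floor, cover counting error only. The log2 difference of m-ICc12 to MEF was -1.29 (SE 0.17, adjusted p 2.66e-05 by edgeR).

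Zeb2 (ENSMUSG00000026872, chr2:44983632-45117395) was at 5.53, 2.91 and 8.48 CPM in m-ICc12 and at 50.2, 47.8 and 57.4 CPM in MEF. The organoid libraries labelled untreated held 8 counts in all, each library at or under the floor. The pooled ratio to organoids was 165 (83.5 to 385) in m-ICc12 and 1521 (771 to 3524) in MEF. The log2 difference of m-ICc12 to MEF was -3.24 (SE 0.33, adjusted p 2.56e-06 by edgeR). Per length, Zeb1 made up 89.3% ± 4.29 of the sum of both ZEB genes in m-ICc12 and 68% ± 2.91 in MEF (n = 3 each), and the ranges of 85.9% to 94.1% and 64.8% to 70.6% did not overlap.

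Snai2 encodes Slug, a repressor of the SNAI family (ENSMUSG00000022676, chr16:14705852-14709385). MEF held it at 42.3, 47.2 and 47.8 CPM. The m-ICc12 libraries labelled untreated held 0, 1 and 1 counts, and the organoids 20 counts in all, of which 14 were in culture Z919. Snai2 was thus at or under the floor in m-ICc12 and in all but 1 organoid library. The pooled ratio of MEF was 2783 (770.1 to 22989) to m-ICc12 and 541 (349.8 to 886) to organoids, and the latter became 1632 (749 to 4450.3) without Z919. Both differences passed the test (adjusted p 1.15e-10 and 2.66e-08 by edgeR). Snai2 met the count filter through MEF alone, so these calls add nothing to the counts. In m-ICc12, where Cdh1 overlapped with MEF, Snai2 was near 0 and Zeb1 and Zeb2 were below their MEF levels.

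The position of m-ICc12 was expressed on the line from the organoid mean (0) to the MEF mean (1) of log2 CPM. Cdh2 stood at 1.01, Vim and Cdh1 at 1.0, Esrp1 at 0.93 and Epcam at 0.85, and Cdh17 at 0.67 and Esrp2 at 0.54 lay further towards the middle. For Zeb1, Zeb2 and Snai2 the organoid end rests on 13, 8 and 20 counts and depends on the prior count of 2, so no exact position is given. Zeb1 and Zeb2 lay on the MEF side of the middle, and Snai2, with 2 counts in m-ICc12, at the organoid end. Thus 9 of 10 members were nearer to MEF, against 59.2% of the 4214 genes that differed by at least 2 log2 units between organoids and MEF. By both tests, with m-ICc12 apart from organoids and from MEF, 4 of the 9 members tested lay between (Cdh17, Esrp2, Zeb1 and Zeb2). Over all genes tested, whether or not they differed between organoids and MEF, this was 11.7% of 12146. Zeb1 and Zeb2 entered the test against organoids only through m-ICc12, where they were higher, and add nothing to this count. Only Cdh17 and Esrp2 lay between without this limit. All members tested differed between organoids and MEF, so the share over all genes is not a like base for them.

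**Figure D3:**
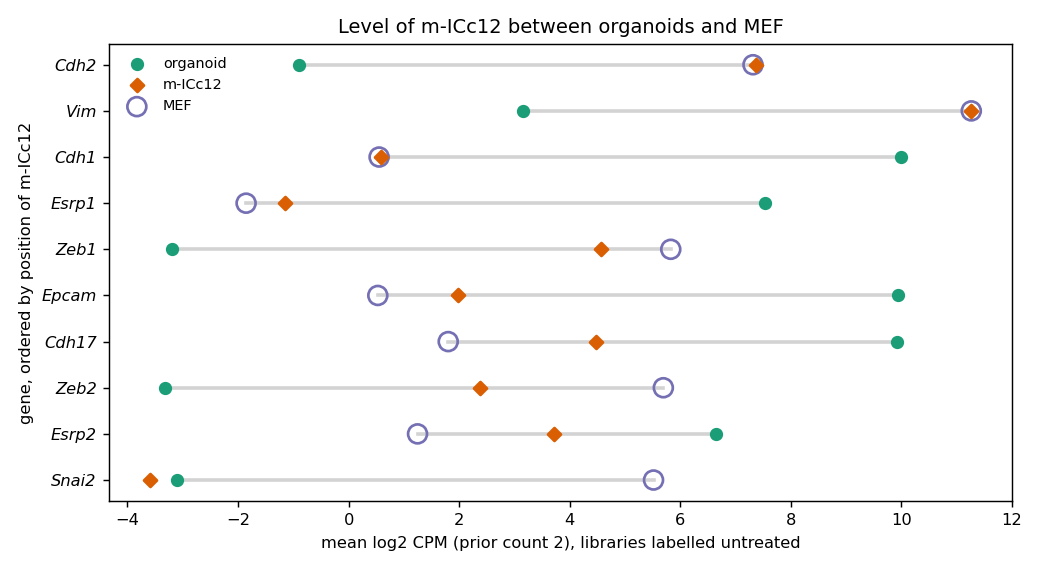
Mean log2 CPM (prior count 2) of each member in organoids (green), m-ICc12 (orange diamonds) and MEF (open purple circles), libraries labelled untreated, with a grey line from organoids to MEF and genes ordered by the position of m-ICc12. The organoid points of Zeb1, Zeb2 and Snai2, and so their places in the order, depend on the prior count. The m-ICc12 diamond lies within the MEF circle for Cdh2, Vim and Cdh1, part of the way along for Esrp2, Zeb2 and Cdh17, and at the organoid end for Snai2.

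The further epithelial genes were split. All 24 were higher in organoids than in MEF, 20 were higher and 2 lower (Krt20 among them) than in m-ICc12, and 15 of 22 tested were higher and 2 lower in m-ICc12 than in MEF. The median log2 differences were 8.98, 3.29 and 5.01, against 0.026, 0.026 and -0.055 over all genes tested. On the line from organoids to MEF, 13 of the 24 were nearer to organoids and 11 nearer to MEF. Krt8, a keratin of simple epithelia, was at 2019.7 ± 191 CPM in organoids, 1373 ± 222 CPM in m-ICc12 and 4.51 ± 0.953 CPM in MEF. Krt20, a keratin of differentiated gut epithelium, was at 180.1 ± 73.2, 677 ± 35.3 and 0.567 ± 0.202 CPM, and was lower in organoids than in m-ICc12 (log2 difference -1.91, SE 0.26, adjusted p 9.14e-06 by edgeR). Krt19 was at 1366 ± 100.3, 1.91 ± 1.14 and 8.75 ± 1.61 CPM. Krt8 and Krt20 were thus high in m-ICc12, where Krt19 was low like Cdh1 and Epcam.

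Of 10 epithelial transcription factors, 9 were higher in organoids than in m-ICc12 and 9 than in MEF, and 4 of 6 tested were higher in m-ICc12 than in MEF, with none lower in any of these. Their median log2 differences were 5.6, 8.02 and 2.24. Elf3 was at 364 ± 25.3 CPM in organoids, 53.4 ± 8.11 CPM in m-ICc12 and 0.557 ± 0.0804 CPM in MEF, and Ehf at 248 ± 38.9, 3.03 ± 0.484 and 0.453 ± 0.207 CPM. Of the 8 that differed by at least 2 log2 units between organoids and MEF, 7 were nearer to MEF in m-ICc12.

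Of the 24 further mesenchymal genes, all 20 tested were lower in m-ICc12 than in MEF. Organoids were lower than MEF in 20 of 21 tested and higher in Fap, named after its values were seen, at 1.62 ± 1.38 CPM against no count in MEF. Organoids against m-ICc12 gave 3 higher and 7 lower of 17 tested. The median log2 differences were -9.6, -10.09 and 0.11 in this order. Over all genes tested 31.2%, 32.6% and 29.3% were lower and 28.1%, 34.6% and 31.6% higher. Only 8 of the 24 averaged 1 CPM or more in m-ICc12 and 9 in organoids, against 19 in MEF. Genes that met the count filter through MEF alone could only be called lower, and add nothing to these counts. Fap met it only through organoids. The matrix protein genes Fn1 and Sparc lay between, with Fn1 at 5.92 ± 5.86 CPM in organoids, 779 ± 105 CPM in m-ICc12 and 3420.1 ± 723 CPM in MEF, and Sparc at 2.05 ± 2.41, 534 ± 16.4 and 2190.0 ± 218 CPM. Col1a1, a fibrillar collagen of fibroblasts, was at 1.35 ± 1.45, 0.812 ± 0.054 and 2069.7 ± 302 CPM. On the line from organoids to MEF, 14 of 21 were nearer to organoids. Some of these, such as Col1a1, were low in both m-ICc12 and organoids. Vim and Cdh2 of m-ICc12 thus overlapped with MEF, and Col1a1 with organoids.

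Among 10 further transcription factors of the epithelial-mesenchymal transition, 7 were lower and 2 higher in m-ICc12 than in MEF of 9 tested. Organoids against MEF gave 7 lower and 1 higher of 9, and organoids against m-ICc12 1 lower and 2 higher of 5. In the same order the median log2 differences were -8.34, -7.53 and -0.17. Twist1, Twist2 and Foxc2 had no count in the m-ICc12 libraries labelled untreated and stood at 16.6 ± 1.7, 19 ± 3.12 and 15.2 ± 1.78 CPM in MEF. Prrx1 was at 0.0682 ± 0.046 CPM in m-ICc12 and 177 ± 8.63 CPM in MEF, Snai1 at 0.0297 ± 0.033 and 11.1 ± 2.73 CPM, and Tcf4 at 17.4 ± 4.54 and 128 ± 1.21 CPM. Snai3 was among the exceptions, at 4.69 ± 1.92 CPM in m-ICc12 and 0.13 ± 0.0959 CPM in MEF. Tcf3 was at 148 ± 29.5 CPM in organoids, 81.3 ± 33.7 CPM in m-ICc12 and 153 ± 7.44 CPM in MEF. Of the 8 that differed by at least 2 log2 units between organoids and MEF, 7 were nearer to organoids in m-ICc12, as was Snai2, whereas Zeb1 and Zeb2 were nearer to MEF.

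**Figure D4:**
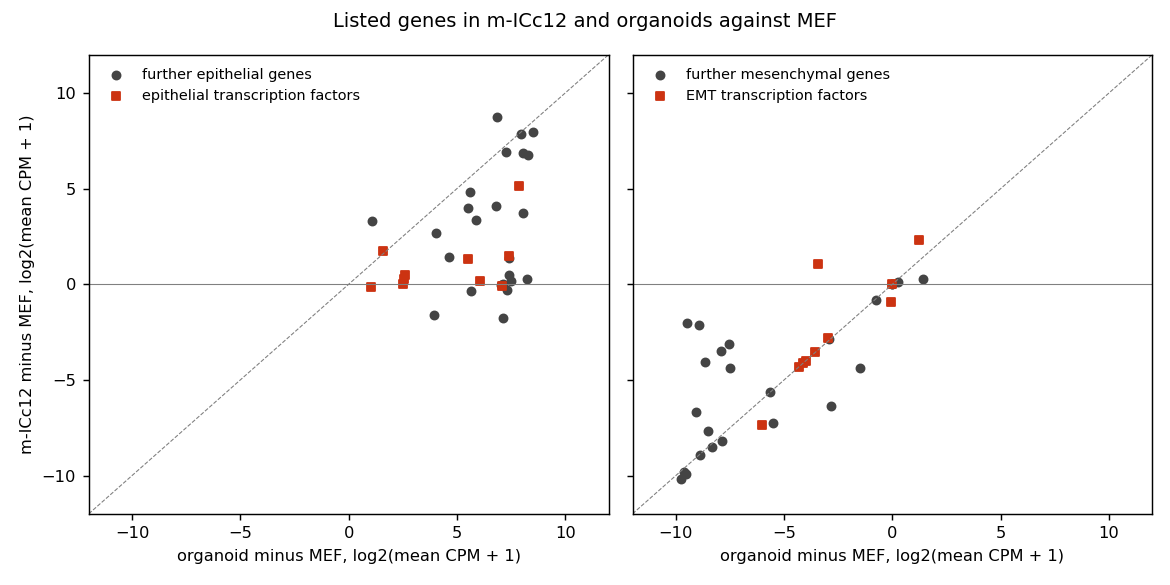
Difference to MEF of organoids (horizontal) and of m-ICc12 (vertical) in log2(mean CPM + 1), 1 point per gene, for epithelial genes and transcription factors (left) and mesenchymal genes and transcription factors of the transition (right). Points on the dashed diagonal have equal levels in m-ICc12 and organoids, and points on the solid line have equal levels in m-ICc12 and MEF. Epithelial genes are spread between both lines, and 14 of 21 mesenchymal genes that differ between organoids and MEF are nearer to organoids. Some of these, such as Col1a1, are low in both m-ICc12 and organoids.

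Likeness to a member was measured over the 15 libraries labelled untreated, as the mean absolute difference of gene-centred log2 CPM, among 13793 genes. The genes most like Cdh1 were Gpa33 (0.12), Tmem45b (0.18) and Gpx2 (0.18). Those most like Esrp1 were Ppp1r1b (0.23), Kcne3 (0.24) and Lgals4 (0.24). For Vim they were Adam12 (0.32), Msn (0.34) and Hoxa10 (0.36), and for Zeb1 they included Zfpm2 (0.42) and Basp1 (0.44).

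Among organoids the coefficient of variation over the 9 cultures labelled untreated was 4.35% for Cdh17, 6.52% for Cdh1, 8.58% for Epcam, 12.1% for Esrp1 and 12.4% for Esrp2. The median over all genes within 2-fold of each level was 12.2%, 12.3%, 12.3%, 12.8% and 15.1%. Cdh17 varied least, and 1.27% of 236 genes at its level varied less. Vim varied by 41.3%, against 37.3% at its level. Per length the order in organoids was Epcam with 447 ± 38.3 CPM per kb, Cdh1 with 222 ± 14.5, Cdh17 with 216 ± 9.39, Esrp1 with 29.6 ± 3.58, Esrp2 with 23.1 ± 2.86 and Vim with 2.01 ± 0.829. Epcam exceeded Cdh1 in 9 of 9 libraries, by 1.79 to 2.2 times, and Cdh17 exceeded Esrp1 in 9 of 9. Cdh1 exceeded Cdh17 in 5 of 9, and in 4 of 9 with the TNF label, so this pair did not differ beyond its spread. Esrp1 exceeded Esrp2 in 7 of 9 libraries labelled untreated, with ratios from 0.882 to 1.67, and in 9 of 9 labelled TNF-treated, with ratios from 1.14 to 1.91.

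No member passed the test for a difference by the facility of the donor mouse. Between GF and SPF organoids 0 of 7 tested members passed, against 0.0325% (4) of 12315 genes by edgeR, where 491 had an unadjusted p under 0.05 and DESeq2 called 21. Between the SPF facilities SR and SE 0 of 7 passed, against 0% of 12219 genes by edgeR, where 486 had an unadjusted p under 0.05 and DESeq2 called 8. Zeb1, Zeb2 and Snai2 were too low in organoids for these tests. Cdh1 averaged 1026 ± 92.6 CPM in SR, 1013 ± 56.5 CPM in SE and 1012 ± 75.1 CPM in GF (n = 3 each), and the 95% interval of its log2 difference between GF and SPF ran from -0.22 to 0.21. For Epcam this interval ran from -0.18 to 0.28. Vim averaged 12.3 ± 2.19 CPM in GF and 8.15 ± 4.0 CPM in SPF, with an interval from -0.22 to 1.41.

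The treatment label gave no called difference in any member. All directions by treatment below follow the labels. The names of the deposited files give the opposite treatment, and the TNF targets also go against the labels. In organoids 0 of 7 tested members passed, against 1.39% (168) of 12104 genes by edgeR. With the culture as a block 397 genes passed, again with 0 members, and 1072 genes had an unadjusted p under 0.05 without the block. Cdh1 ranged from 878 to 1063 CPM in the libraries labelled TNF-treated and was lower there in 7 of 9 cultures, with a log2 difference of -0.045 and a 95% interval from -0.16 to 0.072. Cdh17 was higher in 8 of 9 cultures, by 0.10 without the block (SE 0.061, adjusted p 0.748 by edgeR) and by 0.093 with it (SE 0.040, adjusted p 0.256 by edgeR). The intervals ran from -0.086 to 0.16 for Epcam, from -0.14 to 0.19 for Esrp1 and from -0.14 to 0.18 for Esrp2. All 4 span 0 within a narrow range. Vim was at 7.65 ± 2.5 CPM with the TNF label and at 9.53 ± 3.93 CPM without it, lower in 6 of 9 cultures. Cdh2 was at 0.212 ± 0.141 CPM and 0.635 ± 0.601 CPM, lower in 8 of 9 (log2 difference -1.57, SE 0.81, adjusted p 0.602 by edgeR). These Cdh2 values rest on 52 and 140 counts in all. The largest differences were in the SR cultures Z910 (1 count against 26) and Z908 (8 against 48). The sum of the 24 mesenchymal genes was 15.7 to 39.7 CPM with the TNF label against 14.1 to 68.2 CPM, and its part in the Cdh2 and Vim values was not tested.

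In m-ICc12 0 of 9 tested members passed by label, against 0.11% (13) of 11861 genes by edgeR, where 556 had an unadjusted p under 0.05 and DESeq2 called 46. Esrp2 was at 36, 23.6 and 14.6 CPM in M1, M2 and M3 labelled TNF-treated, against 20.4, 8.51 and 12.7 CPM, higher in 3 of 3 (log2 difference 0.84, SE 0.37, adjusted p 0.996 by edgeR). Zeb2 was at 11.4, 8.58 and 8.82 CPM against 5.53, 2.91 and 8.48 CPM, also higher in 3 of 3 (log2 difference 0.77, SE 0.47, adjusted p 0.996 by edgeR). Cdh1, Cdh17 and Epcam were likewise higher in 3 of 3. None of these passed, and the other members tested had the same adjusted p (0.996 by edgeR). Cdh1 was at 6.75, 1.91 and 1.29 CPM, of which the highest came from M1, the library with the fewest counts of all 27, from 39 counts of Cdh1. In that library 95% of the genes high in organoids were at or above 0.939% of their organoid level, against 0.177% to 0.62% in the other m-ICc12 libraries, and its part in the Cdh1 value was not tested.

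The difference between the responses of m-ICc12 and organoids by label was tested as an interaction. In it 0 of 9 members passed, against 0.159% (21) of 13183 genes by edgeR, where 857 had an unadjusted p under 0.05 and DESeq2 called 70. With the culture as a block 103 genes and 0 members passed. Without the block the lowest adjusted p-values were those of Esrp2 and Cdh2. The differences were 1.67 for Cdh2 (SE 0.64, adjusted p 0.566), 0.82 for Cdh1 (SE 0.35, adjusted p 0.657) and 0.79 for Esrp2 (SE 0.28, adjusted p 0.528), by edgeR. With the block they were 1.62 (SE 0.50, adjusted p 0.201), 0.83 (SE 0.23, adjusted p 0.129) and 0.82 (SE 0.22, adjusted p 0.095) in this order, by edgeR. Of the listed genes outside the members and the TNF targets, 3 passed by label in organoids and are named after their values were seen. By the file names each of their directions would be reversed. Mal2 was higher with the TNF label, at 329 ± 25 CPM against 248 ± 41 CPM. Loxl2 was lower, at 0.126 ± 0.113 CPM against 2.57 ± 2.07 CPM, and so was Ctnnb1 (log2 difference -0.25, SE 0.059, adjusted p 0.023 by edgeR).

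**Figure D5:**
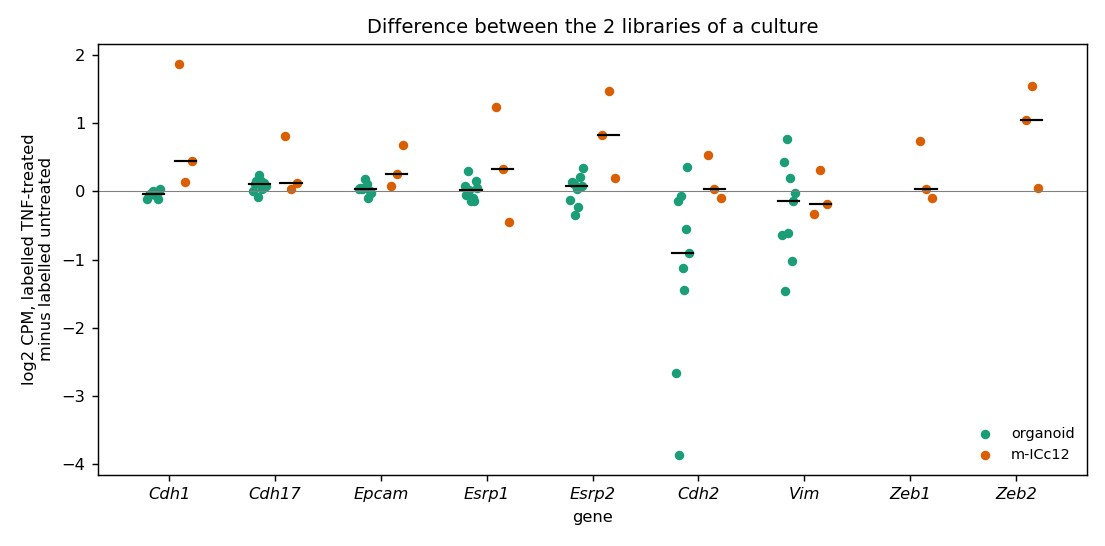
Difference in log2 CPM between the library labelled TNF-treated and the library labelled untreated of each culture, for 9 organoid (green) and 3 m-ICc12 cultures (orange), with the median as a bar. Zeb1 and Zeb2 are drawn for m-ICc12 only and Snai2 is left out for its low counts. The organoid points of Cdh1 lie between -0.12 and 0.032. Those of Cdh2 rest on few counts and reach down to -3.87 in culture Z910, from 1 count against 26. By the file names every sign would be reversed.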

How the data were processed

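The authors removed adapters with Trimmomatic, trimmed the 3′ end and aligned single-end poly-A reads to GRCm38 with STAR. The labels call the TruSeq kit stranded, and the methods do not. The submitters' processing notes name STAR 2.5.4b and featureCounts, whereas the methods name another STAR release and GenomicRanges, and the use of strand in counting is not given in the sources used here. The deposited values are raw counts for 22524 genes in each of 27 libraries. GENCODE vM21 gave a symbol for 22214 identifiers, locations and exon lengths.

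CPM used TMM factors over all libraries. Each comparison was fitted to its own groups without covariates, on genes reaching 10 counts in 50% or more of the libraries of either group, with edgeR's quasi-likelihood F-test (edgeR 4.0.16 in R 4.3.3), two-sided, Benjamini-Hochberg adjusted over all genes tested. The fits were tested on simulated data. Alternatives were DESeq2 1.42.0, RLE factors, no count filter, the study's thresholds (unadjusted p up to 0.05 with a log2 change of 0.5 or more), 1 fit of all libraries, exchanged labels, summed libraries of a culture, a culture block, and leaving out each culture. The members and gene lists were chosen with earlier results of these data known. Named list genes were the 3 most abundant of a list, or all that reached 1 CPM for cadherins and transcription factors of the transition, and 3 genes these rules or the text would have named are not reported here.

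Replicate libraries differed by more than sampling noise (chi-square per degree of freedom 46.7 to 437). Both organoid libraries of a culture come from the same mouse, and their deviations from the group mean correlated at 0.076 to 0.247. Of 18 organoid libraries 17 correlated best with their own culture. Values by label are from the fit without a block unless the block is named.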

Additional observations from a re-analysis of the deposited data

Results flagged for a closer look

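In 3 of 20 sets of 9 organoid libraries (10 members by both labels), 1 library lay far above the other 8 by Dixon's criterion. For normally distributed values chance meets it in about 1 of 20 sets. That rate does not hold here, since in each of the 3 sets 8 libraries were at or under the floor. Snai2 was at 0.622 CPM in culture Z919 labelled untreated, where the next library was at 0.0754 CPM. In culture Z912 labelled TNF-treated Snai2 was at 0.16 CPM, where the next was at 0.0301 CPM. Zeb2 was at 0.143 CPM in culture Z908 labelled TNF-treated, where the next was at 0.0403 CPM. These values rest on 14, 5 and 5 counts.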

How the results depend on the processing

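Between cell types 9, 10 and 5 members were called, and under the alternatives run these counts were 9, 10 and 5 to 6, with 4 to 5 members between organoids and MEF. Of 1064 alternative values of single members, 12 changed their call, all by gaining it, 8 of them for Epcam in m-ICc12 against MEF. Uncalled values changed sign 37 times in 17 results of a size of at most 0.45, apart from exchanged labels, which turn every treatment difference. Under the study's thresholds the treatment label called 1 member in m-ICc12 (Esrp2) and the interaction called 3 (Cdh1, Cdh2 and Esrp2), where both had 0, since these thresholds use the unadjusted p.

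With the culture as a replicate block, 0 members were called by label in organoids, in m-ICc12 and in the interaction, and the block changed no member's call. Over all genes it called 397 in organoids against 168, 6 in m-ICc12 against 13, and 103 in the interaction against 21. In m-ICc12 the libraries share only a number, with a lowest correlation of -0.0037 and 3 of 6 libraries correlating best with their own number. All-gene counts also moved by over 1.5 times under the study's thresholds (352 in organoids, 445 in m-ICc12, 748 in the interaction, 313 for GF against SPF and 376 for SR against SE) and with DESeq2 (46 in m-ICc12, 70 in the interaction, 21 for GF against SPF and 8 for SR against SE). In 1 fit of all libraries they were 35 in m-ICc12, 29 for GF against SPF and 2 for SR against SE, without a count filter 30 in m-ICc12 and 5 for SR against SE, and with summed libraries 7 for GF against SPF and 1 for SR against SE. RLE factors and exchanged labels each gave 1 for SR against SE. Without culture M2 the label called 93 genes in m-ICc12 and the interaction 11, and without M3 the interaction called 40. Leaving out 1 organoid culture gave 2 to 5 for GF against SPF, with 2 without Z917, Z918 or Z919, and 0 to 35 for SR against SE, the highest without Z909, with 6 without Z912 and 1 without Z908. The cause was not tested. Depth limits Zeb1, Zeb2 and Snai2 in organoids, which could not be compared among organoid groups.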
